A study of Mus musculus with 3 samples.

Results

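The ectodysplasin pathway was described here through 5 genes, Eda, Edar, Edaradd, Eda2r and Tnfrsf19, chosen by name from the 19165 genes of a single-cell expression table of mouse dorsal skin. All 5 were present in the table and had at least 1 UMI (unique molecular identifier, a count of captured transcripts) at every stage. At least 50 UMIs were held by 3 of the genes at E13.5 and by 4 at each later stage. The skin came from the back of male C57BL/6 mice at embryonic days E13.5 and E16.5 and on the day of birth (P0), when hair follicles are induced, grow down and begin to differentiate. No allele or treatment set the groups apart, tissue of several animals was pooled before sequencing, and each stage was 1 droplet-based 3' library. E13.5 and E16.5 skin was digested with trypsin and P0 skin with collagenase IV, so stage, library and digestion cannot be told apart.

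Ectodysplasin is a ligand of the tumour necrosis factor (TNF) family that is needed for the formation of hair follicles, teeth and sweat glands. Eda encodes the ligand, Edar the receptor for its A1 form, and Edaradd the death-domain adaptor through which that receptor activates NF-kB. Eda2r encodes a receptor for the A2 form, and Tnfrsf19 (also called Troy) a related receptor with roles in skin that overlap those of Edar. In hair placodes, Wnt signalling is known to act upstream of Edar, and Edar signalling to raise Shh, Fgf20, Dkk4 and other placode genes.

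Both ligand forms come from Eda on chromosome X, through alternative splicing of a coding exon. In the GENCODE annotation of GRCm38, Eda lies at X:99975606-100400762 on the plus strand. The exon of transcript Eda-206 runs from X:100395019 to X:100395149 and that of Eda-205 from X:100395028 to X:100395143, and both join the exon that starts at X:100396905. The junctions are shown because the bases kept or lost at the exon's end separate the ligand of Edar from that of Eda2r. Capitals mark the 6 bases kept in the long form only.
Eda-206 junction: atctatagtcagGTAGAAgtctactacatc
Eda-205 junction: atctatagtcaggtctactacatc
The junction lies 3856 bases from the 3' end of Eda-206 and 3858 from that of Eda-205. Of the other long transcripts, Eda-209 is annotated to end 3855 bases after it and Eda-201 252 bases after it. Reads from the 3' end seldom reach the junction, and the table holds 1 value for both forms.

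The other genes are Edar at 10:58600789-58675654, Edaradd at 13:12472632-12520438, Eda2r at X:97333840-97377216 and Tnfrsf19 at 14:60963875-61046490, all on the minus strand. No exon of another gene overlapped theirs on the same strand. Promoters of the 3 genes that were past 2-fold between epithelium and dermis at E16.5 are shown, taken from RefSeq on GRCm38.p6, each 250 bases before to 50 after the start, read 5′ to 3′ on the gene's strand. Both strands were searched for the TCF/LEF motifs CTTTGAA and CTTTGAT and for the NF-kB consensus, since Wnt acts upstream of Edar and NF-kB downstream. Capitals mark a match.
Edar promoter (10:58675647-58675946): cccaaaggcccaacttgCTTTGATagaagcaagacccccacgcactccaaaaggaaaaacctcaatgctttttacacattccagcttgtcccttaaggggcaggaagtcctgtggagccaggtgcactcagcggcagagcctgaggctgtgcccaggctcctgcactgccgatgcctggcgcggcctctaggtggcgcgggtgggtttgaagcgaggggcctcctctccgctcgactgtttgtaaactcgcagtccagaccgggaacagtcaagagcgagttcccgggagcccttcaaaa
Edaradd promoter (13:12520401-12520700): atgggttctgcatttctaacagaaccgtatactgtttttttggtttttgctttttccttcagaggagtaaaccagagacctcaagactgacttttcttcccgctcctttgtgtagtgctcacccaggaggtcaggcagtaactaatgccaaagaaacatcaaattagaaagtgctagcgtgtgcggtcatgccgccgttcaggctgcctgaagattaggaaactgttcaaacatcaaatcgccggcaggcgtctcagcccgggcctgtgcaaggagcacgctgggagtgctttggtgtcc
Tnfrsf19 promoter, second start (14:61037938-61038237): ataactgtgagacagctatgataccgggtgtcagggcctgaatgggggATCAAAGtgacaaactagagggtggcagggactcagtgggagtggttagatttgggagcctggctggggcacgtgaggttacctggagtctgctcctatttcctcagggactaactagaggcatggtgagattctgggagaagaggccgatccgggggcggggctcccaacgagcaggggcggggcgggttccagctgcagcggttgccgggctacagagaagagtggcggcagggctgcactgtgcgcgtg
CTTTGAT was found in the Edar window at position -233 and on the opposite strand of the second Tnfrsf19 window at position -202. Of 32851 promoters, 3.73% held CTTTGAT, 5.14% held CTTTGAA and 4.51% held the NF-kB consensus. The windows of Edaradd, Eda, Eda2r and the first Tnfrsf19 start held none of these letters, and the NF-kB consensus was in no window of the 5 genes. The matches do not overlap and say nothing about whether a factor binds there.

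The libraries held 5962, 5208 and 5065 cells at E13.5, E16.5 and P0, with 53334740, 66239195 and 46599806 UMIs. Median depth was 7066.5, 11021 and 6797 UMIs per cell. Pairs of libraries shared 32 to 44 cell barcodes, and 1 barcode was in all 3. Cells were named "like" a type from marker lists that held none of the 5 genes. Epithelial-like cells numbered 252, 875 and 1502, and dermal-like cells 2310, 3227 and 2294. The summed level of the 14 epithelial markers was 7436, 19556 and 25911 UMIs per 1000000 UMIs (CPM) in epithelial-like cells at the 3 stages, and 117, 719 and 1042 CPM in dermal-like cells. The 12 dermal markers summed to 1297, 2507 and 1531 CPM in epithelial-like cells and 9732, 29363 and 43316 CPM in dermal-like cells, and all markers of both lists were detected in both classes.

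With 1 library per stage no test was possible. Values are given with 95% intervals for counting error only, which are exact Poisson for a level, exact conditional binomial for a ratio and exact binomial for a share of cells. A gene was counted as past 2-fold where the ratio of CPM reached 2 in either direction and both groups together held 50 UMIs. Beside each count, or once for a comparison and stage, stands the share of all genes with that depth that were past 2-fold in the same direction.

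Edar, the receptor, had its highest level of all named classes in epithelial-like cells at each stage. At E13.5 this rank was not separate within counting error, since the interval of immune-like cells, the next class, reached 2.04 CPM. The epithelial level of Edar was 3.42 CPM (1.56 to 6.49) at E13.5, 25.5 CPM (22.9 to 28.3) at E16.5 and 23.8 CPM (21.7 to 26.0) at P0. In dermal-like cells it was 0.277, 0.971 and 0.672 CPM. The epithelial level was 26.3 times the dermal level (18.5 to 38.3) at E16.5 and 35.4 times (19.1 to 74.3) at P0. At E13.5 the ratio was 12.3 (3.92 to 42.1), but it rested on 9 epithelial and 6 dermal UMIs and was under the depth for a count. The intervals of the 3 ratios overlap. The P0 ratio was 10.4 with each cell placed by its own markers and 75.3 with every cell thinned to 3500 UMIs.

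Free RNA can place UMIs in cells that do not express a gene, and Krt14, a keratin of the basal epidermis, was used as a gauge. The dermal level of Krt14 was 0.0118, 0.0312 and 0.0458 of its epithelial level at E13.5, E16.5 and P0. For Edar the same fraction was 0.0811 (0.0237 to 0.255), 0.0381 (0.0261 to 0.0540) and 0.0283 (0.0135 to 0.0524). An Edar UMI was seen in 0.260%, 0.961% and 0.436% of dermal-like cells and in 0.249%, 0.570% and 0.749% of endothelial-like cells, which should lack it. Median depths were 8510.5, 10355 and 5926 UMIs in dermal-like and 7670, 16540 and 9713 UMIs in endothelial-like cells. The E16.5 and P0 intervals hold the fraction of Krt14, and the E13.5 interval lies above it but rests on 6 dermal UMIs. Whether free RNA gave the dermal Edar UMIs was not tested, and no dermal expression was read from these values.

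**Figure D1:**
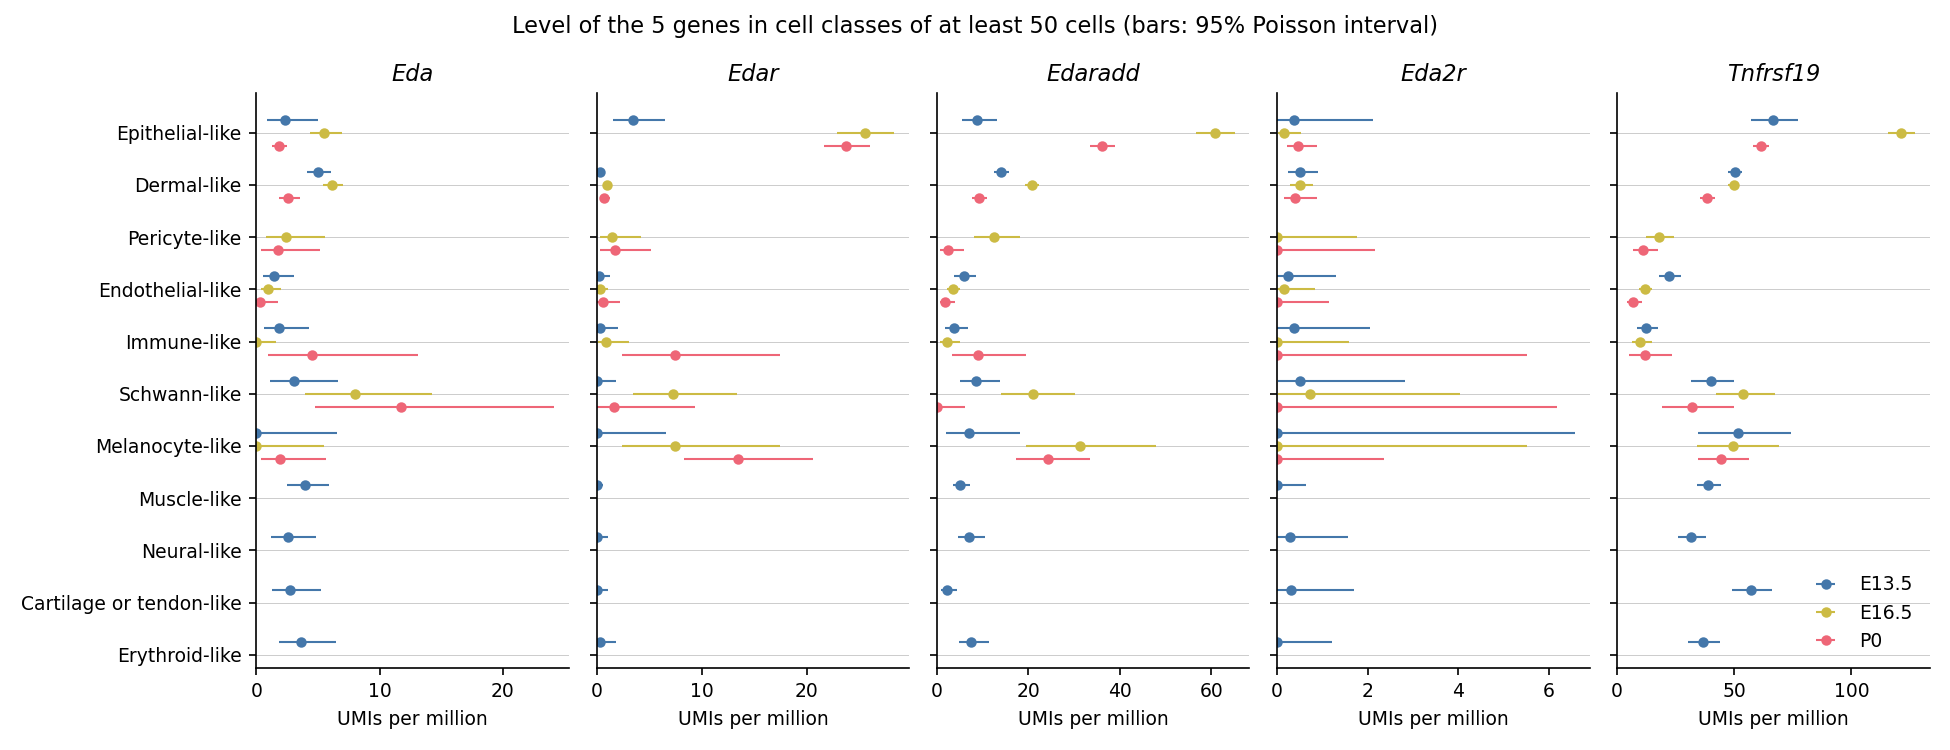
Level of each gene (CPM, linear axis) in every cell class of at least 50 cells, with 1 point per stage and 95% Poisson intervals. Edar at E16.5 and P0 stands at 25.5 and 23.8 CPM in epithelial-like cells and under 1 CPM in dermal-like cells, while Edaradd and Tnfrsf19 are present in both.

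Edaradd, the adaptor, was detected in dermal-like as well as epithelial-like cells. In dermal-like cells it reached 14.05 CPM (12.5 to 15.7) at E13.5, 20.9 CPM (19.4 to 22.4) at E16.5 and 9.27 CPM (7.79 to 11.0) at P0. In epithelial-like cells it was 8.74 CPM (5.54 to 13.1), 60.8 CPM (56.7 to 65.1) and 36.2 CPM (33.6 to 39.0). The epithelial level was 0.622 times the dermal level (0.388 to 0.951) at E13.5, 2.91 times (2.64 to 3.22) at E16.5 and 3.91 times (3.25 to 4.72) at P0. The direction at E13.5 was therefore opposite to that of the later stages for the pooled epithelial-like cells. Of these 252 cells at E13.5, 130 were periderm cells with 1 Edaradd UMI. The 58 suprabasal cells held 6.22 CPM (1.70 to 15.9). The 64 basal cells held 30.7 CPM (18.2 to 48.5), above the dermal interval. Dermal Edaradd at E16.5 was 0.343 of the epithelial level, against 0.0312 for Krt14, and at P0 0.256 against 0.0458. Other classes held it too, at E13.5 with 7.58 CPM in erythroid-like, 7.07 CPM in neural-like and 5.88 CPM in endothelial-like cells. Schwann-like cells at E16.5 had 21.0 CPM. Whether free RNA gave part of the dermal Edaradd was not tested.

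Tnfrsf19, the related receptor, was present in both classes. Epithelial-like cells held 66.5 CPM (57.0 to 77.1) at E13.5, 121 CPM (116 to 127) at E16.5 and 61.4 CPM (58.0 to 65.0) at P0. Dermal-like cells held 50.4, 49.7 and 38.4 CPM. The ratio was 1.32 (1.12 to 1.55), 2.44 (2.28 to 2.61) and 1.60 (1.45 to 1.77), so that it passed 2-fold at E16.5 alone. Its UMIs were in 41.7%, 74.3% and 43.7% of epithelial-like cells, and in 22.6%, 32.3% and 20.8% when each cell was thinned to 3500 UMIs.

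Eda, the ligand, was low in both classes. Epithelial-like cells held 2.28 CPM (0.837 to 4.96), 5.53 CPM (4.35 to 6.93) and 1.79 CPM (1.25 to 2.49) at the 3 stages, and dermal-like cells 4.99 CPM (4.09 to 6.03), 6.16 CPM (5.38 to 7.02) and 2.55 CPM (1.81 to 3.50). The epithelial level was 0.457 times the dermal level (0.164 to 1.03) at E13.5 from 6 and 108 UMIs, 0.898 times (0.681 to 1.17) at E16.5 and 0.702 times (0.431 to 1.14) at P0. All 3 intervals hold 1, so a difference between epithelium and dermis was not detectable at this depth. Eda UMIs were in 4.16% of dermal-like cells at E13.5 and 6.32% at E16.5, against 1.496% and 1.71% of endothelial-like cells.

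Eda2r, the receptor of the A2 form, had 18, 25 and 15 UMIs in the whole E13.5, E16.5 and P0 libraries, too few to compare. Its level was 0.508, 0.499 and 0.403 CPM in dermal-like cells and 0.380, 0.147 and 0.461 CPM in epithelial-like cells. In no pair of these classes did the intervals separate.

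Read as counts, 0 of the 3 genes with enough UMIs at E13.5 were past 2-fold toward epithelial-like cells, against 9.45% of all genes, and 1 (Eda) was toward dermal-like cells, against 18.7%. That count was 0 at clustering resolution 1.5, with at least 2500 genes per cell and with mixed sub-clusters kept. Toward epithelial-like cells were 3 of 4 at E16.5 (Edar, Edaradd and Tnfrsf19), against 11.5%, and 2 of 4 at P0 (Edar and Edaradd), against 14.7%. None was past 2-fold toward dermal-like cells at either of these stages, against 19.9% at E16.5 and 17.5% at P0.

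**Figure D2:**
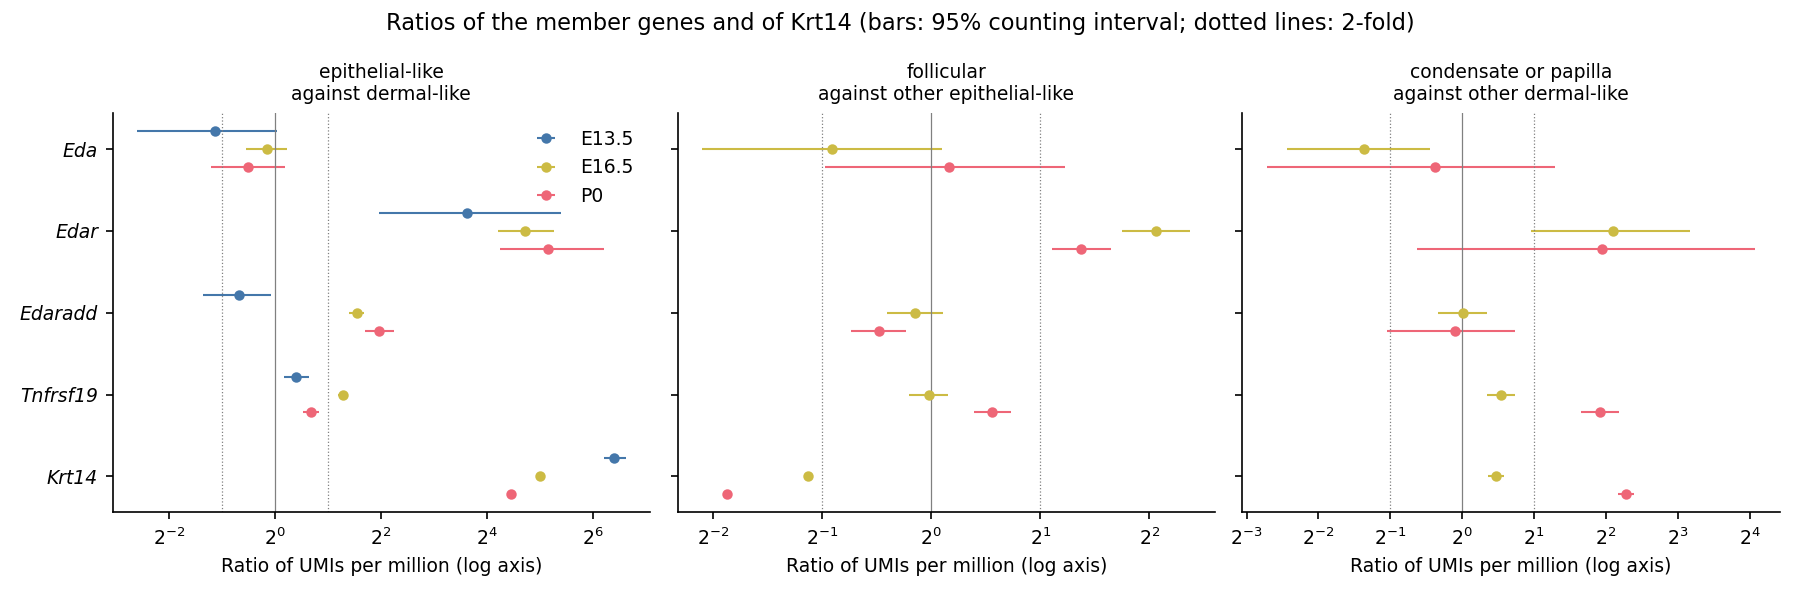
Ratio of CPM between groups (log axis) for 4 of the genes and for Krt14 in each of the 3 comparisons, with 95% counting intervals, whatever the number of UMIs. Edar stands at 26.3 and 35.4 in the first panel and at 4.18 and 2.60 in the second, and Tnfrsf19 at 3.79 in the third at P0.

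Other classes differed in how much of the 5 genes they held. Endothelial-like cells had 5.88, 3.45 and 1.88 CPM of Edaradd and 22.4, 12.002 and 6.88 CPM of Tnfrsf19 at E13.5, E16.5 and P0. Immune-like cells had 12.5, 9.96 and 11.95 CPM of Tnfrsf19. Both classes lay below the dermal-like and epithelial-like levels of Tnfrsf19 at each stage, with intervals that do not overlap theirs. Nearer the dermal level at E13.5 were melanocyte-like (51.7 CPM), Schwann-like (40.0 CPM), erythroid-like (36.6 CPM) and neural-like cells (31.7 CPM). Erythroid-like cells of that stage also held 1990 CPM of the dermal marker Col1a1, against 1899 CPM in dermal-like cells. Its source was not tested.

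Schwann-like cells gave the highest Eda point value at E16.5 and P0, 7.97 CPM (3.98 to 14.3) and 11.7 CPM (4.72 to 24.2). These came from 11 and 7 UMIs. The E16.5 interval overlaps that of dermal-like cells, and the P0 interval lies above it. Melanocyte-like cells at P0 had 13.499 CPM of Edar (8.36 to 20.6) and 24.4 CPM of Edaradd (17.3 to 33.5). Their Krt14 level was 1262 CPM, against 4372 CPM in epithelial-like cells and 200.2 CPM in dermal-like cells, and its part in these values was not tested.

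Cartilage or tendon-like cells, seen at E13.5, had 57.1 CPM of Tnfrsf19 (49.2 to 65.9), which overlaps the dermal-like and the epithelial-like interval, and 2.14 CPM of Edaradd (0.860 to 4.41), which lies below the dermal-like one. Muscle-like cells at E13.5 held 38.8 CPM of Tnfrsf19, and no Edar UMI was found in the 548 of them, a count of 0 whose exact interval reaches 0.631 CPM (0.513 CPM by the limit of 3 counts).

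Whether Edar was higher in cells named follicular was asked within the epithelium. Follicular cells, named from 12 markers such as Lhx2, Sox9 and Lgr5, numbered 175 at E16.5 and 477 at P0, and no E13.5 sub-cluster was named follicular. Other epithelial-like cells were all the rest. At E16.5, 615 of the 700 had no sub-class named. At P0 the 1025 included follicle cells, 113 of the inner root sheath and 140 of the upper follicle, and 328 with no sub-class. Edar stood at 64.6 CPM (55.5 to 74.8) in follicular and 15.5 CPM (13.2 to 18.0) in other epithelial-like cells at E16.5, a ratio of 4.18 (3.37 to 5.19). At P0 it was 40.9 CPM (36.1 to 46.3) against 15.8 CPM (13.7 to 18.1), a ratio of 2.60 (2.15 to 3.13). The groups do not overlap at either stage within counting error.

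Neither the adaptor nor the related receptor passed 2-fold, though Tnfrsf19 was higher in follicular cells at P0. Edaradd was 56.0 CPM in follicular and 62.1 CPM in other epithelial-like cells at E16.5, a ratio of 0.902 (0.753 to 1.08), and 28.5 and 39.8 CPM at P0, a ratio of 0.717 (0.601 to 0.851). Tnfrsf19 was 120 and 122 CPM at E16.5, a ratio of 0.985 (0.871 to 1.11), and 78.7 and 53.4 CPM at P0, a ratio of 1.47 (1.31 to 1.66). Eda was 3.25 CPM from 9 UMIs and 6.11 CPM from 66 UMIs at E16.5, a ratio of 0.532 (0.233 to 1.07).

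Edar alone was thus past 2-fold toward follicular cells, 1 of 4 genes at E16.5 against 3.85% of all genes and 1 of 3 at P0 against 3.62%. None was past 2-fold toward other epithelial-like cells, against 3.84% at E16.5 and 6.29% at P0. Krt14 was lower in follicular cells, at 0.456 times the other level at E16.5 and 0.273 times at P0. It is a marker of the basal interfollicular list, which competed with the follicular list, so its lower level was partly set by the naming. The P0 ratio of Edar ran from 2.59 to 4.71 over the alternative groupings.

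Within the follicular cells, Edar was highest where Shh led. At E16.5 the sub-cluster led by Dkk4, Fgf20 and Shh (115 cells) held 79.0 CPM of Edar (65.3 to 94.7), and the sub-cluster led by Lhx2, Pthlh and Sox9 (60 cells) 48.4 CPM (37.2 to 62.0). At P0 the sub-clusters led by Shh and Sp5 held 78.9 CPM (66.2 to 93.4; 142 cells) and 65.5 CPM (49.7 to 84.7; 77 cells). The remaining follicular sub-clusters at P0, led by Col14a1 and Lgr5 and by Tagln, both held 16.9 CPM. Tnfrsf19 followed the same order at P0, with 133 CPM in both Shh-led sub-clusters and 37.3 and 48.0 CPM in the other 2. At E16.5 the order was not particular to Edar. Tnfrsf19 was 157 CPM (138 to 179) in the Dkk4-led and 77.7 CPM (63.3 to 94.4) in the Lhx2-led sub-cluster. Edaradd was 70.8 CPM (57.9 to 85.8) and 39.2 CPM (29.2 to 51.6). Edaradd did not follow this order at P0, with 30.4 and 22.6 CPM in the Shh-led sub-clusters and 23.5 and 52.2 CPM in the others.

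Outside the follicular class were values between these, 42.2 CPM (32.2 to 54.3) in 99 cells led by the muscle genes Acta1, Mylpf, Myl1 and Tnnc2 and 34.0 CPM (24.7 to 45.7) in 157 cells led by Prss35.

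Suprabasal cells, the differentiating layers of the epidermis, had the lowest Edar value of the epithelial-like sub-clusters at E16.5, 3.52 CPM (1.14 to 8.21) from 5 UMIs, and at P0, 3.33 CPM (1.22 to 7.25) from 6 UMIs. A P0 basal sub-cluster led by H19 had about the same, 3.36 CPM (1.09 to 7.85) from 5 UMIs. Edaradd was still 28.2 CPM (20.1 to 38.3) in suprabasal cells at E16.5 and 31.1 CPM (23.5 to 40.4) at P0. The upper follicle at P0, led by Krt79, had 9.57 CPM of Edar (6.46 to 13.7) and 17.5 CPM of Tnfrsf19 (13.2 to 22.8). The inner root sheath, named from keratins such as Krt28 and Krt71, had 20.3 CPM of Edar (13.03 to 30.3), 48.3 CPM of Edaradd (36.6 to 62.6) and 86.5 CPM of Tnfrsf19 (70.5 to 105).

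Basal interfollicular cells at P0 held 57.5 CPM of Edaradd (50.1 to 65.7), about the level of the inner root sheath and above follicular cells. Their Edar level was 10.9 CPM (7.84 to 14.8). The 2 sub-clusters of this group differed in Edar, with 15.9 CPM (11.1 to 22.0) in 218 cells with globin genes among the leading genes and 3.36 CPM (1.09 to 7.85) in 91 cells led by H19. At E13.5 the 64 basal cells, whose leading gene was Dkk4, held 6 of the 9 epithelial Edar UMIs, 10.2 CPM (3.75 to 22.2), with 30.7 CPM of Edaradd (18.2 to 48.5) and 90.3 CPM of Tnfrsf19 (67.6 to 118). The 130 periderm cells of that stage held 1 UMI each of Edar and Edaradd and 40.0 CPM of Tnfrsf19 (30.2 to 51.9). A sub-cluster of 42 of these cells was led by Tac1 and Aspn, which are not periderm genes.

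**Figure D3:**
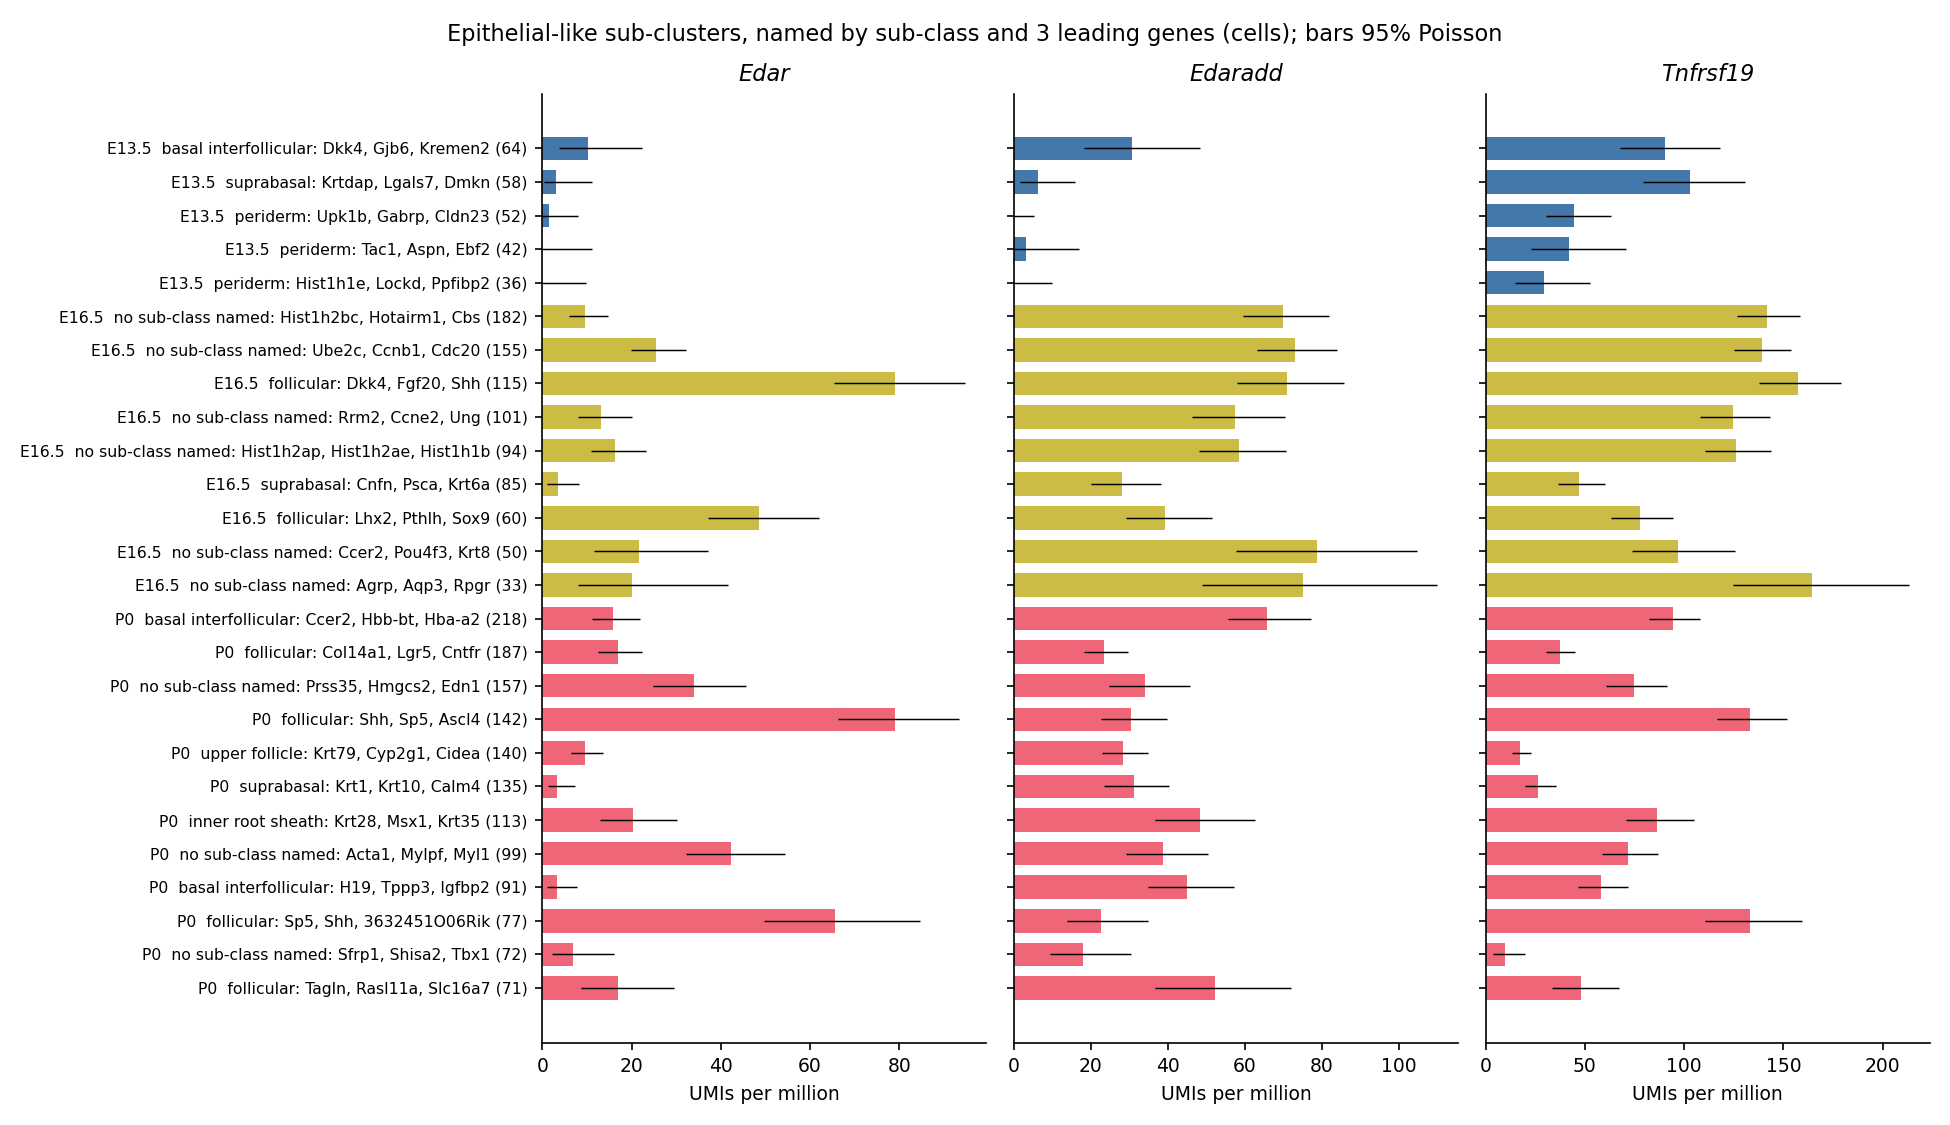
Level of Edar, Edaradd and Tnfrsf19 (CPM) in each epithelial-like sub-cluster, with 95% Poisson intervals and the number of cells in brackets. The tallest Edar bars (79.0 CPM for E16.5, 78.9 CPM for P0) belong to sub-clusters led by Shh with Dkk4 or Sp5, and Edaradd at E16.5 runs from 28.2 CPM in the suprabasal to 78.7 CPM in the Ccer2-led sub-cluster.

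In single cells, detection of Edar with its adaptor was read with each cell thinned and unthinned. Thinning left 62 of 220 epithelial-like cells with Edar at E16.5 and 126 of 322 at P0. The thinned intervals are therefore wide, and the part of depth was not tested. With each cell thinned to 3500 UMIs, Edaradd was seen in 22.6% (12.9 to 35.0) of the 62 epithelial-like cells with Edar at E16.5 and in 20.3% (17.6 to 23.2) of the 813 without. At P0 the shares were 12.7% (7.44 to 19.8) of 126 cells and 11.6% (9.91 to 13.4) of 1376. Tnfrsf19 at E16.5 was in 35.5% (23.7 to 48.7) of cells with Edar and 32.1% (28.9 to 35.4) of those without. It was in 31.7% (23.7 to 40.6) of cells with Edar at P0 and 19.8% (17.8 to 22.0) of those without, which do not overlap, and within follicular cells in 38.6% (27.2 to 51.0) and 24.3% (20.2 to 28.8), which do. Unthinned, Edaradd was in 60.5% and 52.1% at E16.5, with overlapping intervals, and in 38.8% (33.5 to 44.4) and 29.7% (27.1 to 32.4) at P0, and Tnfrsf19 was in 80.9% (75.1 to 85.9) and 72.1% (68.5 to 75.5) at E16.5, which overlap, and in 64.3% and 38.1% at P0.

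The dermal condensate (DC) and later dermal papilla (DP), the mesenchymal signalling centre of the follicle, were named from 14 markers such as Sox2, Sox18 and Foxd1 and held 429 cells at E16.5 and 205 at P0. At E16.5 Tnfrsf19 stood at 69.0 CPM (61.0 to 77.8) in DC-like cells, while the rest of the dermis held 47.4 CPM (45.0 to 49.8), a ratio of 1.46 (1.27 to 1.66). At P0 it was 114 CPM (97.1 to 132) in DP-like and 30.0 CPM (27.1 to 33.1) in other dermal-like cells, a ratio of 3.79 (3.14 to 4.54). Eda at E16.5 was 2.57 CPM (1.23 to 4.72) from 10 UMIs against 6.59 CPM (5.74 to 7.54) from 212, a ratio of 0.389 (0.184 to 0.730). Edaradd did not differ beyond counting error, with ratios of 1.01 (0.793 to 1.27) at E16.5 and 0.937 (0.485 to 1.66) at P0. Edar had 12 and 3 UMIs in DC-like and DP-like cells, and 9 of the 12 were in the E16.5 sub-cluster led by Bmp3, Sox18 and Sox2. Its E16.5 level was 3.08 CPM (1.59 to 5.38) against 0.715 CPM (0.454 to 1.07) in other dermal-like cells, a ratio of 4.30 (1.95 to 9.01). At P0 the ratio was 3.86 (0.644 to 16.9), and both were under the depth for a count.

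In counts, 0 of the 3 genes with enough UMIs were past 2-fold toward DC-like cells at E16.5, against 7.01% of all genes, and 1 (Eda) was toward other dermal-like cells, against 8.32%. At P0, 1 of 2 (Tnfrsf19) was toward DP-like cells, against 14.3%, and 0 were the other way, against 8.49%.

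The P0 value of Tnfrsf19 came with epithelial markers. Krt14 stood at 701 CPM in the papilla and 145 CPM in the rest of the dermis, the 14 epithelial markers, all detected in both, summed to 3159 and 806 CPM, and the neural markers, 4 and 7 of 8 detected, to 738 and 152 CPM. Their part in the result was not tested. Most of the Krt14 was in the sub-cluster led by Plac8, Bmp7 and Bmp3 (110 cells), with 1204 CPM of Krt14 and 152 CPM of Tnfrsf19 (126 to 182). Without it the ratio of Tnfrsf19 was 2.37. The sub-cluster with Corin and Rspo1 among its leading genes (43 cells) had 139 CPM of Krt14, close to other dermal-like cells, and 103 CPM of Tnfrsf19 (74.1 to 139). The third, led by Heyl (52 cells), had 27.1 CPM (11.7 to 53.4), within the range of other dermal-like sub-clusters. At E16.5 the sub-cluster led by Bmp3, Sox18 and Sox2 (211 cells) held 88.8 CPM (76.1 to 103) and that with Foxd1 among its leading genes (218 cells) 49.0 CPM (39.7 to 59.9). Without the former, which was also the higher in Krt14 (210 against 176 CPM), the E16.5 ratio was 1.03.

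Edaradd and Tnfrsf19 varied across the other dermis too. At E13.5 the sub-cluster led by Calb1, Slitrk6 and Wif1 (300 cells) had 32.9 CPM of Edaradd (26.3 to 40.6) and 81.8 CPM of Tnfrsf19 (71.2 to 93.5). The sub-cluster led by Osr2 and Cemip (256 cells) had 2.67 CPM (1.07 to 5.50) and 17.9 CPM (13.2 to 23.8). Krt14 was 12.6 and 4.58 CPM in them, against 9.80 CPM in all dermal-like cells.

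Over the dermal-like sub-clusters of 1 library, the levels of Edaradd and Tnfrsf19 were correlated as log2 of CPM plus 10. Pearson r was 0.89 at E13.5 (12 sub-clusters), 0.77 at E16.5 (14) and 0.41 at P0 (13). The sub-clusters of a stage share a library and differ in depth, and no p is given. Edaradd was highest in a sub-cluster led by Kcnk2 both at E16.5, with 43.6 CPM (36.0 to 52.3), and at P0, with 26.9 CPM (19.4 to 36.4). These sub-clusters had 77.0 and 58.9 CPM of Tnfrsf19. The lowest Tnfrsf19 was in a sub-cluster led by C1qtnf3 at E13.5 (15.9 CPM) and E16.5 (11.6 CPM) and in a Ly6a-led one at P0 (9.12 CPM).

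**Figure D4:**
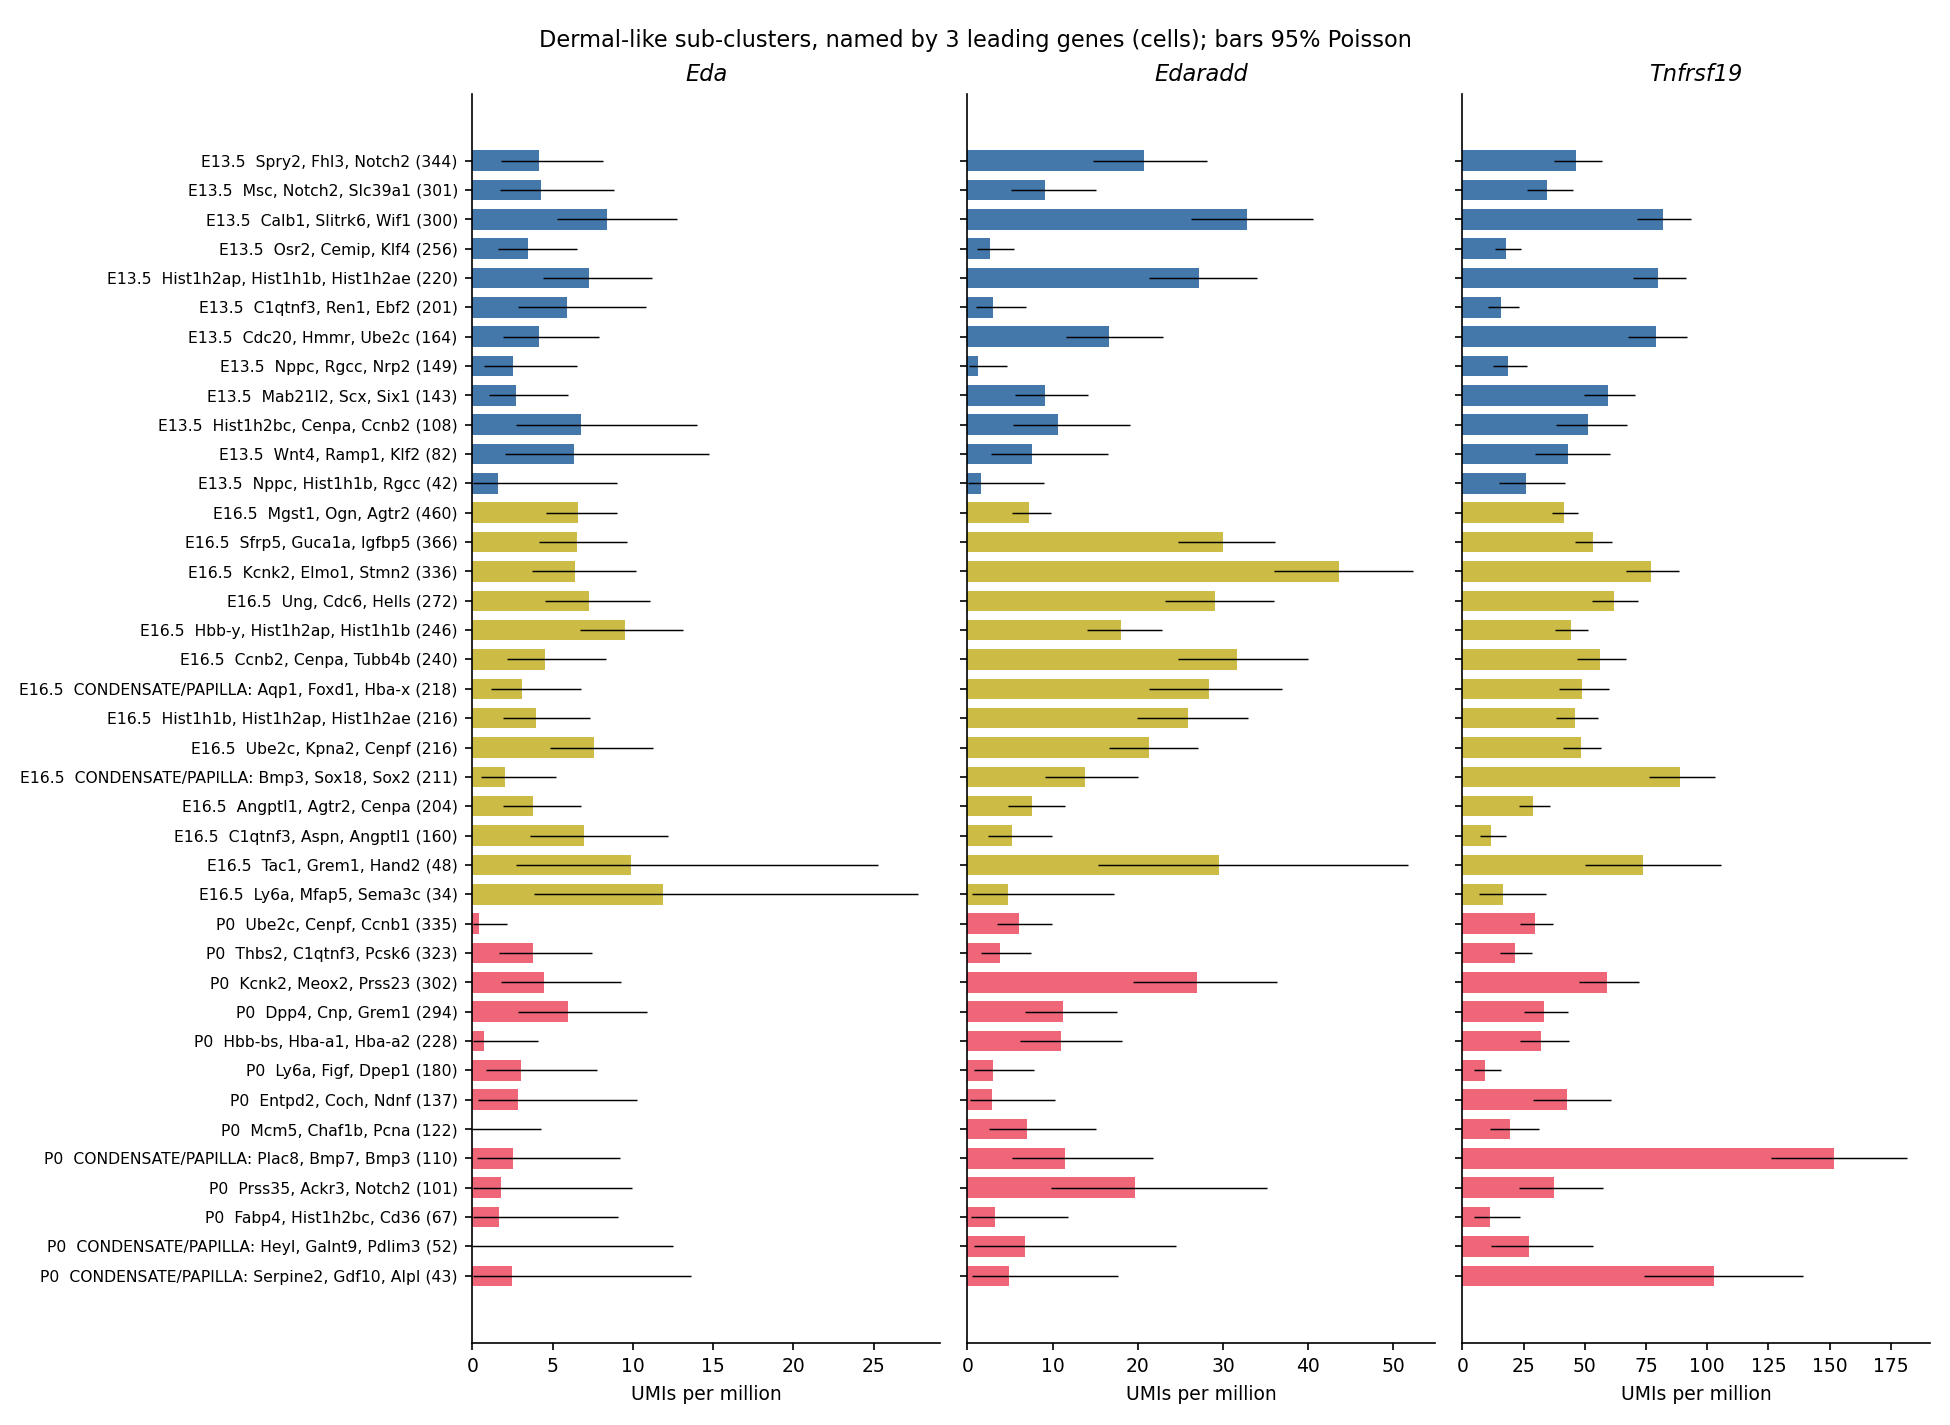
Level of Eda, Edaradd and Tnfrsf19 (CPM) in each dermal-like sub-cluster, with 95% Poisson intervals, the number of cells in brackets and condensate or papilla sub-clusters named in capitals. Edaradd runs from 1.28 to 32.9 CPM at E13.5 and Tnfrsf19 reaches 152 CPM in a P0 papilla sub-cluster, while the Eda intervals are wide.

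The known skin targets of the pathway were looked up from a list of 15, of which 14 were in the table. Toward epithelial-like cells 2 of 5 genes with 50 UMIs were past 2-fold at E13.5, 10 of 12 at E16.5 and 8 of 10 at P0, against 9.45%, 11.5% and 14.7% of all genes, and 1, 1 and 0 were toward dermal-like cells, against 18.7%, 19.9% and 17.5%. At E13.5 the 2 were Dkk4, a Wnt inhibitor of the placode, at 26.2 against 0.370 CPM, and Wnt10a at 26.6 against 1.39 CPM. Dkk4 (53.3 times the dermal level), Fgf20 (47.1 times) and Pthlh (46.1 times) had the highest ratios at E16.5, and Shh (47.5 times), Pthlh (21.7 times) and Wnt10b (19.1 times) at P0. Ccnd1, a cyclin, was the gene toward dermal-like cells, at 0.274 times the dermal level at E13.5 and 0.400 at E16.5. The median log2 ratio of the list was 0.85, 3.33 and 2.46, beside -0.06, -0.09 and 0.10 over all genes tested.

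Within the epithelium at E16.5, 7 of 10 targets were past 2-fold toward follicular cells, against 3.85% of all genes, and none the other way, against 3.84%. Shh was 20.6 times higher (14.8 to 29.4), Ltb 13.4 times (7.25 to 26.3) and Dkk4 11.4 times (9.53 to 13.6), followed by Pthlh, Fgf20, Wnt10b and Ccnd1. At P0 4 of 9 were toward follicular cells, against 3.62%, with Shh at 9.31 times (7.89 to 11.0), Fgf20 at 3.08, Ccnd1 at 2.21 and Wnt10b at 2.04. Toward other epithelial-like cells were 3 at P0, against 6.29%, Pthlh at 0.260 times, Fst at 0.313 and Wnt10a at 0.477. Pthlh thus stood on opposite sides at the 2 stages. It was among the leading genes of the P0 upper follicle sub-cluster, which counts with the other epithelial-like cells. These genes were kept out of the clustering and of the follicular markers, though some were among the leading genes of its sub-clusters. The follicular markers include Ptch1 and Gli1 of the Shh pathway, so the naming was not independent of Shh. The part of this in the ratios was not tested. The median log2 ratio was 2.12 and 0.63, beside 0.07 and 0.09 over all genes.

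The list of 22 signal transducers (TRAF adaptors, kinases and NF-kB subunits and inhibitors) stood closer to equal levels. Toward epithelial-like cells were 3 of 19 at E13.5, 6 of 21 at E16.5 and 6 of 21 at P0, against 9.45%, 11.5% and 14.7% of all genes. Toward dermal-like cells were 1, 1 and 0, against 18.7%, 19.9% and 17.5%. Nfkbia, an inhibitor that NF-kB itself induces, was 2.01, 2.59 and 2.32 times higher in epithelial-like cells, and Tab3, of the kinase complex below TRAF6, 2.99, 4.57 and 3.30 times. Traf6, which binds the adaptor, was 2.56 times higher at E13.5, Tnfaip3, another inhibitor, 5.23 times at E16.5 and 3.10 times at P0, and Rel 2.16 and 5.23 times at these stages. Nfkb1 was 2.46 times and Traf3 2.17 times higher at E16.5, and Traf1 was 2.49 times and Nfkbib 2.33 times higher at P0. Map3k14 stood lower, at 0.498 times the dermal level at E13.5 and 0.392 at E16.5. The median log2 ratio was 0.21, 0.34 and 0.46 at the 3 stages. Toward follicular cells at E16.5 were 2 of 19, against 3.85%, Tnfaip3 at 10.6 times (5.94 to 19.6) and Relb at 2.73 times (2.04 to 3.64), and at P0 0 of 20, against 3.62%. The median log2 ratios were 0.26 and -0.09.

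**Figure D5:**
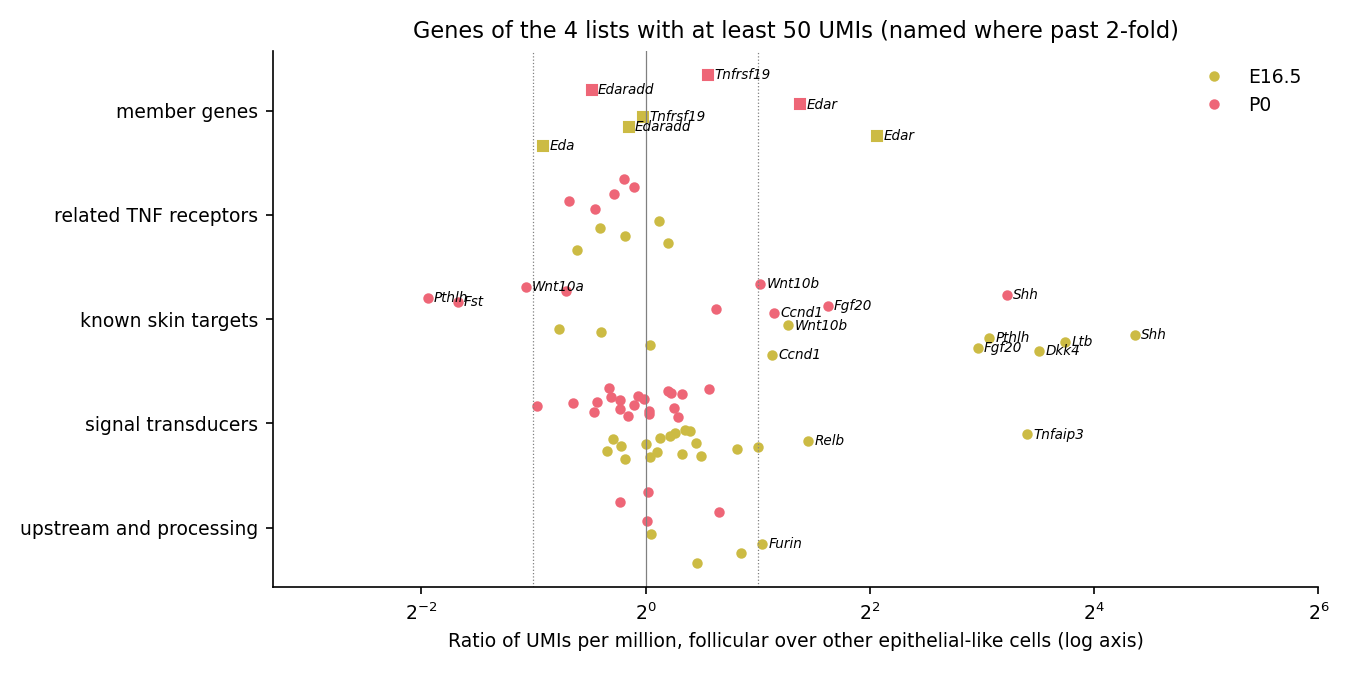
Ratio of follicular over other epithelial-like level (log axis) for each gene of the 4 lists with at least 50 UMIs at E16.5 and P0, named where past 2-fold, with the 5 genes as squares where deep enough. Edar stands at 4.18 and 2.60, beside Shh at 20.6 and 9.31 among the targets and Tnfaip3 at 10.6 among the transducers at E16.5.

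Genes upstream of Edar or acting on its ligand were Lef1, Ctnnb1 and Axin2 of the Wnt pathway and Furin, the protease that releases Eda. Ctnnb1 was 2.31 and 2.32 times and Lef1 2.27 times (E16.5 alone) higher in epithelial-like cells, and none of the 4 passed 2-fold at E13.5. Toward follicular cells Furin was 2.05 times higher at E16.5 and none at P0. Toward DC-like and DP-like cells Lef1 was 3.72 times (3.45 to 4.01) and 5.94 times (5.14 to 6.85) higher, Ctnnb1 2.13 and 2.16 times, and Furin 2.16 times at P0.

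Related TNF receptors were counted in the same way. Of 8, 10 and 9 with enough UMIs, 1 at each stage was past 2-fold toward epithelial-like cells (Tnfrsf12a at 4.34 times, Tnfrsf21 at 4.498 and Tnfrsf11b at 2.11), against 9.45%, 11.5% and 14.7% of all genes. Toward dermal-like cells were 2, 4 and 5, against 18.7%, 19.9% and 17.5%. Ngfr was 0.167, 0.0742 and 0.0598 times the dermal level. Cd40 had 0 epithelial and 197 dermal UMIs at E13.5 and was 0.0277 times (0.00333 to 0.101) and 0.0500 times (0.0132 to 0.135) the dermal level at E16.5 and P0. Ltbr was at 0.228 and 0.234 times, Tnfrsf11a at 0.130 and 0.0832, and Fas at 0.343 at P0. The median log2 ratio of the list was -0.44, -0.76 and -1.54.

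None of these receptors passed 2-fold between follicular and other epithelial-like cells, of 5 at each stage. In the condensate and papilla, where 7.01% and 14.3% of all genes were higher and 8.32% and 8.49% lower, Tnfrsf11a was 8.25 times (5.48 to 12.4) and 6.47 times (3.62 to 11.4) higher, Ngfr 4.77 and 2.41 times, and Tnfrsf21 2.65 times at P0. Lower there were Ltbr at 0.429 times and Tnfrsf11b at 0.116 times (0.00290 to 0.668) from 1 UMI at E16.5, and Tnfrsf12a at 0.255 times and Cd40 at 0.305 times (0.0361 to 1.15) from 2 UMIs at P0. Of the targets, Wnt10a was 6.09 and 8.28 times and Fst 3.05 and 2.72 times higher, with Sostdc1 at 2.01 and Pthlh at 2.25 times at P0, and Map3k14 was the sole transducer past 2-fold, at 0.483 times at E16.5.

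To see which genes follow the same pattern, levels were correlated on a log2 scale over 35 groups of cells for 13339 genes. Edar was most like Has3, a hyaluronan synthase (r = 0.95), then Bnc1 (0.92), Ascl4 (0.91), 2010300C02Rik (0.89) and Lgr6 (0.89). Edaradd was most like Ass1, of arginine synthesis (0.92), then Trp63, the p63 factor of stratified epithelium and one of the epithelial markers (0.83), Gm5424 (0.82), which resembles Ass1 and may share reads with it, Fgfr2 (0.81) and Ryk (0.81). Tnfrsf19 was most like Lef1 (0.84), then Ttc23 (0.79), Bmp7 (0.78), Pard6g (0.77) and Irf2bp1 (0.76). Eda was most like Chadl, Abca8a, 1700049G17Rik, Ncam2 and Kcna1, at 0.66 to 0.68, and Eda2r was too low to be placed. These lists depended on the measure. By Spearman's rho 1 of the 5 stayed among the first 5 for Eda, 1 for Edar, 3 for Edaradd and 3 for Tnfrsf19, and with a constant of 1 in place of 10 these were 1, 2, 1 and 5. By rho Trp63 (0.93), Gyltl1b (0.92) and Fermt1 (0.92) stood ahead of Has3 (0.90) for Edar. For Eda, 1700049G17Rik came first by both, at 0.76 and 0.77.

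Among the 5 genes themselves, r was 0.75 for Edar and Edaradd, 0.60 for Edaradd and Tnfrsf19 and 0.52 for Edar and Tnfrsf19. Eda had r between 0.03 and 0.24 with the others. These values pool lineages and stages. Over epithelial-like sub-clusters, Edar and Edaradd had r of 0.95 at E13.5 (5 sub-clusters), 0.32 at E16.5 (9) and -0.10 at P0 (12). Over dermal-like ones, where Edar had few UMIs, it was -0.04, -0.20 and -0.12. In the epithelium Edar and Tnfrsf19 had 0.78, 0.38 and 0.75, and Edaradd and Tnfrsf19 0.74, 0.87 and 0.42. Groups of 1 stage share a library, so these values describe the 3 libraries only.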

How the data were processed

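Back skin of male C57BL/6 mice was measured by 3' single-cell RNA sequencing, 1 library at each of 3 stages. The authors aligned reads to mm10 with Cell Ranger, removed cells with few genes and deposited, per the labels and methods, the natural log of 1 plus UMIs per 10000. Whole UMIs were recovered from all 48197283 values above 0 and summed by group. The series text names 15086 cells and the table holds 16235, and no reason was found for the difference. The 5 genes, the lists and the comparisons were chosen with earlier results of these data known.

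Cells of each library were clustered (scanpy 1.11.5, leidenalg 0.10.2, Python 3.11.15) on 2000 variable genes, 30 principal components and 15 neighbours at resolution 1, with the 5 genes and the 51 genes of the 4 lists kept out. Clusters were named from markers, by a naming rule set after the clusters were seen, and sub-clusters that mixed classes were left out, except that globin genes among the leading genes did not count (1 such sub-cluster, of 218 cells, was kept in the P0 epithelium and 1, of 228 cells, in the P0 dermis). Scrublet marked 0, 77 (1.48%) and 101 (1.99%) cells as doublets. These were kept, and at E13.5 the caller had not worked. Condensate or papilla sub-clusters needed a mean log2 marker level of 1.5 over the reference and 7 markers. An E16.5 sub-cluster of 216 cells (1.06, 6 markers) and a P0 sub-cluster of 137 cells (1.16, 7 markers) were kept out.

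Levels are UMIs per 1000000 UMIs of the group (CPM), with exact 95% intervals (scipy 1.17.1) for counting error only, and no test was made because each stage is 1 library. The ratio step was checked on simulated data. List genes were named where past 2-fold, and of more than 5 the 3 highest and 3 lowest, and the 5 genes of most similar pattern were named for each gene with 200 UMIs. Alternatives covered clustering, naming, depth, doublets, thresholds and constants.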

Additional observations from a re-analysis of the deposited data

How the results depend on the processing

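Of the counts of genes past 2-fold, 164 values under alternative settings stayed within 1.5 times the reported count and 10 did not, and of the ratios 35 values moved by more than their interval and 329 did not. The unchanged values include settings without effect at E13.5. There, leaving doublets out removed 0 cells, and leaving out globin-led sub-clusters changed no value between epithelial-like and dermal-like cells. No ratio counted as past 2-fold changed direction. Eda2r, under 50 UMIs throughout, went at E13.5 from 0.748 to 3.06 after thinning. The single gene toward dermal-like cells at E13.5, Eda, became 0 at clustering resolution 1.5, with at least 2500 genes per cell and with mixed sub-clusters kept, and 2 at 1.5-fold. Toward dermal-like cells at E16.5 the count went from 0 to 1 with at least 20 UMIs. Toward other epithelial-like cells at E16.5 it went from 0 to 1 with 1000 variable genes and at 1.5-fold. Toward follicular cells at P0 it went from 1 to 2 when clusters were named against the median, where Tnfrsf19 stood at 2.39. Toward condensate cells at E16.5 it went from 0 to 1 with at least 20 UMIs, and toward other dermal-like cells at P0 from 0 to 1 after thinning to 3500 UMIs. The cause was not tested. The P0 epithelial ratio of Edar was 75.3 after thinning and 10.4 with epithelial cells gated one by one, and the P0 papilla ratio of Tnfrsf19 ran from 2.37 to 5.58. The condensate comparison gave no value at E16.5 with naming against the median, nor at P0 with at least 2500 genes. Keeping mixed sub-clusters, leaving out globin-led ones and leaving out the Krt14-high condensate sub-cluster were chosen after seeing the data. No paired analysis was possible because each stage is 1 library. Depth limits Eda2r at every stage and Edar at E13.5.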
